A study of Mus musculus with 15 samples.

Results

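Tcf7l2, Rora, Rorb, Foxp1, Foxp2, Prox1, Nr2f1, Nr2f2, Zfhx3 and Zfhx4 encode transcription factors that mark nuclei or groups of nuclei in the developing thalamus. They are described here across sorted thalamic cells of the mouse embryo. The genes were chosen by name, as array features whose annotation names exactly 1 of these symbols, with the feature of highest mean kept for each gene. Each of the 10 genes had 1 such feature, out of 22180 genes in all, and all 10 lay above the filter that left out the 25% of genes with the lowest mean.

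Total RNA was measured on Affymetrix expression arrays in 5 groups of 3 biological replicates. Cells of embryonic thalamus had been sorted by fluorescence. The E18.5 groups were double-labelled, red and green, and those of E14.5 were red and green. Every embryo carried the genotype Gbx2CreER-IRES-EGFP/+::R26lsl-tdTomato/+ on a C57BL/6 background. Green is EGFP made from the Gbx2 locus, and red is tdTomato made from the Rosa26 locus after tamoxifen-activated Cre has acted. Tamoxifen (4 mg) was given to pregnant females at E9 where embryos were taken at E18.5, and at E9.5 where they were taken at E14.5, so stage and tamoxifen day cannot be told apart. No group without the Gbx2 insertion was analysed here. The sorting gates and any pooling of embryos are not given in the sources used here. E14.5 had no double-labelled group, so E14.5 red or green cells may include cells that carry both labels. Differences between stages, also in the red-green difference, may therefore compare unlike sorts. In such bulk samples, fewer cells of a type and less RNA per cell cannot be told apart.

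Thalamic neurons arise from progenitors of the caudal diencephalon and, as they leave the cell cycle, switch on sets of transcription factors that differ between future nuclei. TCF7L2 binds DNA with an HMG box and carries the output of the Wnt and β-catenin pathway; it is made by most postmitotic thalamic and habenular neurons. RORA and RORB are orphan nuclear receptors that bind DNA as monomers, and both are known from principal sensory nuclei. NR2F1 and NR2F2, also called COUP-TFI and COUP-TFII, are orphan receptors that pattern many forebrain areas. FOXP1 and FOXP2 are forkhead proteins that mostly repress their targets. PROX1 is a homeodomain protein that promotes exit from the cell cycle, and ZFHX3 and ZFHX4 are very large proteins with several homeodomains and many zinc fingers.

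Promoter sequence is given for the genes with the widest range between groups that have a window in the RefSeq table (Prox1 and Rorb). It is also given for Nr2f2, the only gene with a searched motif in the window examined. The windows run from 250 bases before to 50 bases after the annotated start, on the gene's own strand, in build GRCm38.p6. Of the 10 genes, 8 had a window. Tcf7l2, Rorb, Foxp1, Prox1 and Nr2f1 had several, and only the first listed window of each gene was searched. The motifs were the TCF core CTTTGAT, the nuclear receptor core AGGTCA and the forkhead core TGTTTAC, searched on both strands. Capitals mark the single match, a TCF core that starts 114 bases before the start of Nr2f2. Among all 32851 windows of this length, the TCF core was found in 3.73%, the receptor core in 16.3% and the forkhead core in 3.65%. A match describes letters in a window and is not evidence of binding.
Prox1, chr1:190170778-190171077, minus strand: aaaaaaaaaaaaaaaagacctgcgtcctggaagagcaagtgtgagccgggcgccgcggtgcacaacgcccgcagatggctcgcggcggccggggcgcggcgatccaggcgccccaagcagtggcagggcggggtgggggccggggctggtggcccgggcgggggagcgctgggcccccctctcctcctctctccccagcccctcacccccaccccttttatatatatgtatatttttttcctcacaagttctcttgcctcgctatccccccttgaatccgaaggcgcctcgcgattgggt
Rorb, chr19:19111147-19111446, minus strand: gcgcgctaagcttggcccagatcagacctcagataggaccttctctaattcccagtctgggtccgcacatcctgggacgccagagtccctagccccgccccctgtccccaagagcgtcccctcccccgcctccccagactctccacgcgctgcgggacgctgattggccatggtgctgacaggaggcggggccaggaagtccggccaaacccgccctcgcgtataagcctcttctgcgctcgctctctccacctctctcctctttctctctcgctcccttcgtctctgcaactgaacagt
Nr2f2, chr7:70366697-70366996, minus strand: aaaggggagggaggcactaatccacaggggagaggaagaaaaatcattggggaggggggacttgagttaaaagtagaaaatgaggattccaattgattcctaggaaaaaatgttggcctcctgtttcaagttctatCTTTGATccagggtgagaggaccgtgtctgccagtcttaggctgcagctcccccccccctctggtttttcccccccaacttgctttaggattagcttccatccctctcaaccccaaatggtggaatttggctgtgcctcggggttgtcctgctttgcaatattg
GC content was 49.7% in the Nr2f2 window, and it lay between 60.3% and 70% in the other 7.

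The number of arrays limits the precision of every value. Values are log2 signals as deposited, and the mean over all features was 6.17 to 6.19 in the 9 E18.5 arrays, against 5.63 to 5.65 in the 6 E14.5 arrays. For that reason, differences between stages were computed after each array's median was subtracted; as deposited the median gene differed by 0.60 in red and 0.61 in green cells. Subtraction lowered each difference by 0.65 in red and 0.70 in green cells, which leaves the median gene at -0.05 and -0.09. E18.5 red replicate 1 and E18.5 double-labelled replicate 1 stood apart, with SDs over all values of 1.34 and 1.31; the SDs of the other arrays of that stage were 1.44 to 1.51. Pairs of E18.5 arrays also shared exactly equal values in 1.6% to 5.15% of features, against 0.0769% to 0.16% of features for pairs of E14.5 arrays. Foxp1, Zfhx3 and Nr2f1 had such equal values at E18.5, so their SDs there may be too small. Slc17a6, which encodes the vesicular glutamate transporter of thalamic relay neurons, averaged 10.17, 10.11 and 10.52 in double-labelled, red and green cells at E18.5. It averaged 9.504 and 9.96 in the E14.5 red and E14.5 green groups, and its mean was at the 98.9th percentile of genes.

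Gbx2, the homeobox gene whose locus drives EGFP, averaged 8.33 in double-labelled, 6.35 in red and 8.43 in green cells at E18.5, and 7.30 in red and 8.07 in green cells at E14.5. It was lower in red than in green cells at E18.5, with a difference of -2.07 (limma, adjusted p = 0.0052). At E14.5 the difference of -0.77 did not pass the test (adjusted p = 0.27). The sort used EGFP made from this locus, so neither comparison is independent of how the cells were chosen.

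At E18.5, Zfhx4 was the only gene of the 10 to pass the test between colours, and it was higher in red cells than in both other populations. Between red and green cells 1 of 10 genes passed, against 0.613% of all 16635 genes tested. In double-labelled against red cells 1 of 10 passed, against 0.0902% of all genes. In double-labelled against green cells 0 of 10 passed in limma, against 0.0361% of all genes. There, 3 of 10 had an unadjusted p under 0.05, against 5.70% of all genes. In double-labelled against red cells that count was 6 of 10, against 4.52%. Over the 3 populations together, limma's moderated F test passed for 1 of 10, against 0.427% of all genes. Groups without overlap were more frequent than passed tests. The 3 red and 3 green values at E18.5 did not overlap for 7 of the 10 genes, against 15.3% of all genes. Double-labelled and green values did not overlap for 3 of 10, against 8.15%, and double-labelled and red values for 4 of 10, against 4.18%. The median difference of the 10 genes was -0.21 in red against green, -0.06 in double-labelled against green and -0.02 in double-labelled against red cells. Over all genes these medians were -0.01, -0.0045 and 0.02.

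At E14.5, Rora alone passed between red and green cells, 1 of 10 against 3.52% of all genes, and the groups did not overlap for 4 of 10 against 27.9%. Between stages, 5 of 10 genes passed in red cells, against 23.2% of all genes. Of these 1 was higher and 4 were lower at E18.5, against 9.90% and 13.3% of all genes. As deposited the balance in red cells turned, with 4 higher (Rorb, Prox1, Nr2f1 and Zfhx4) and 1 lower (Zfhx3), against 71.3% and 1.06% of all genes. In green cells 6 of 10 passed, against 33.1%, with 2 higher and 4 lower, against 13.0% and 20.1%. As deposited 8 passed in green cells. Of these 6 were higher (Tcf7l2, Rora, Rorb, Foxp2, Prox1 and Nr2f1) and 2 lower (Zfhx3 and Zfhx4), against 71% and 2.45% of all genes. The stages did not overlap for 5 of 10 genes in red cells, against 39.4%, and for 8 of 10 in green cells, against 61.2%. The difference between red and green cells itself differed between stages for 1 of 10, Prox1, against 1.05% of all genes.

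**Figure D1:**
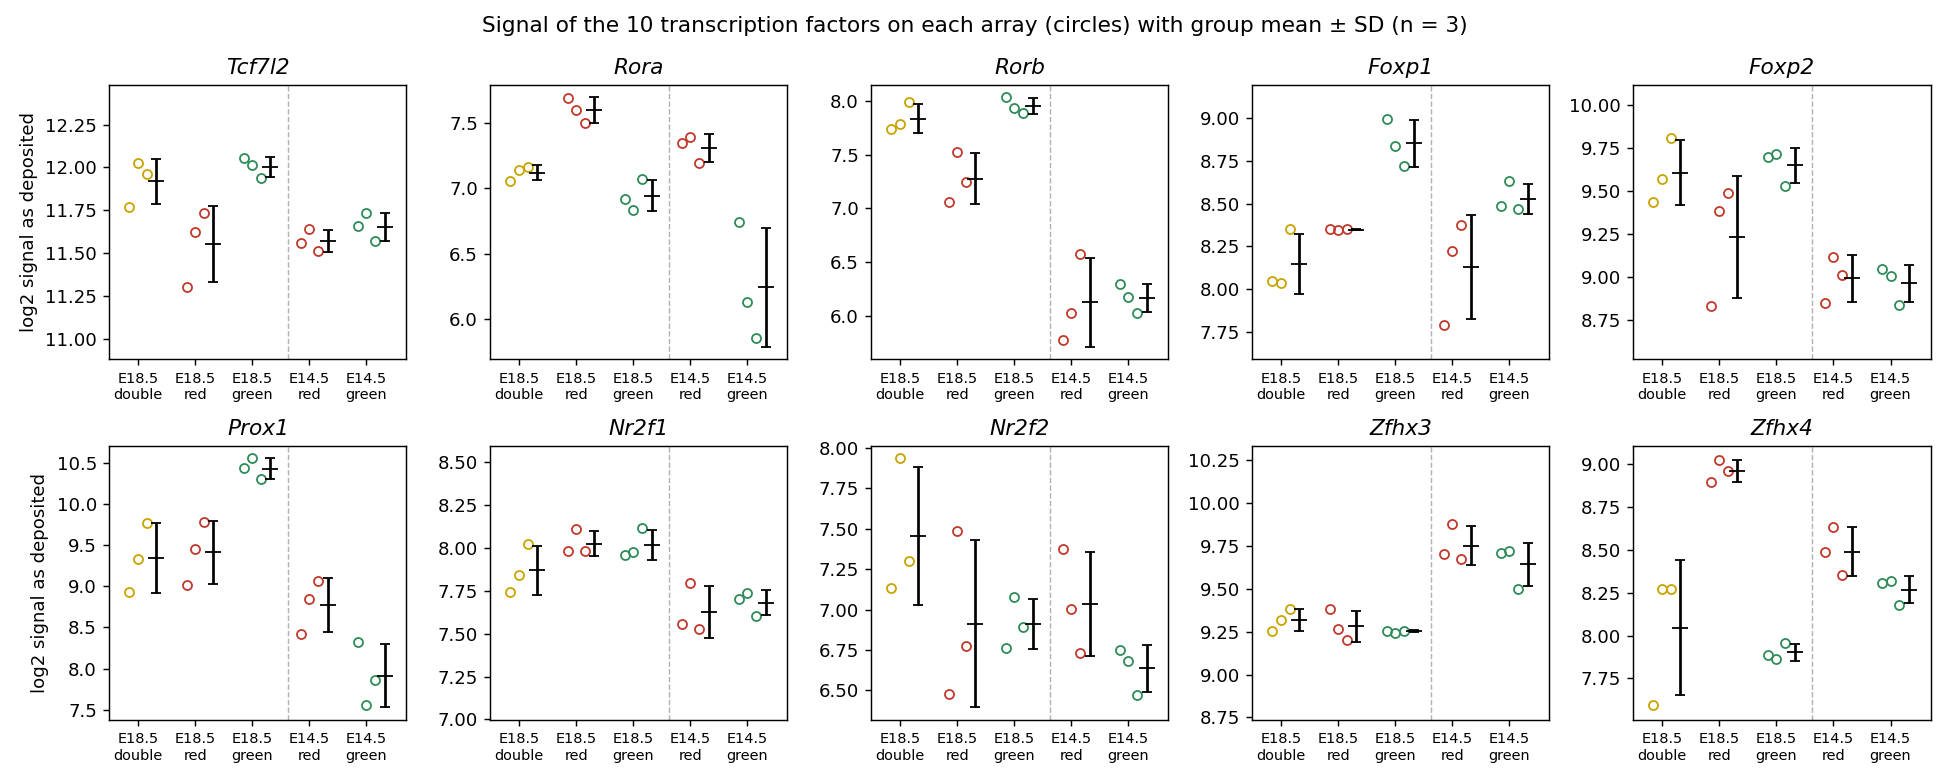
Log2 signal as deposited (vertical axis) of each of the 10 genes in the 5 groups (horizontal axis); points are single arrays and bars are group means with SD, 3 arrays a group. Zfhx4 stands highest in E18.5 red cells, Prox1 stands highest in E18.5 green cells, and Tcf7l2 lies between 11.30 and 12.05 in every array; levels of E18.5 and E14.5 carry a shift of 0.60 to 0.61 for the median gene.

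Tcf7l2 was among the brightest genes of the table, with a mean over 15 arrays at the 99.9th percentile. Its log2 signal was 11.77, 12.03 and 11.96 in E18.5 double-labelled cells. It was 11.30, 11.62 and 11.73 in E18.5 red cells, against 12.05, 12.01 and 11.94 in E18.5 green cells. All 3 red values lay below all green and all double-labelled values. The difference between red and green cells was -0.45 (SE 0.12, adjusted p = 0.15) and that between double-labelled and red cells 0.36 (SE 0.12, adjusted p = 0.7; 0.24 without red replicate 1), and neither passed. At E14.5 the signal was 11.56, 11.64 and 11.51 in red cells and 11.66, 11.73 and 11.57 in green cells, ranges that overlap. The difference there was -0.08 (SE 0.12, adjusted p = 0.94).

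Between stages, the centred signal of Tcf7l2 was lower at E18.5 in red cells, with a difference of -0.67 (95% interval -0.92 to -0.42, adjusted p = 0.001). With the values as deposited that difference was -0.02 (adjusted p = 0.9). In green cells the centred difference was -0.35 (adjusted p = 0.033), and it turned to 0.35 as deposited (adjusted p = 0.017), so its direction is not settled. The centred call in green cells was also lost without E14.5 green replicate 1 or 2 or any 1 of the E18.5 green replicates (adjusted p = 0.063 to 0.12). Relative to the array median Tcf7l2 was lower at E18.5, while its own signal as deposited differed by -0.02 in red and 0.35 in green cells.

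Rora encodes a receptor known from the ventrobasal and other sensory relay nuclei. At E18.5 its signal was 7.05, 7.14 and 7.17 in double-labelled cells. It was 7.69, 7.60 and 7.50 in red cells, against 6.92, 6.84 and 7.07 in green cells. Red cells stood above both other populations in every array, while double-labelled and green cells overlapped. Red minus green was 0.65 (SE 0.17, 95% interval 0.29 to 1.02), and it did not pass over all genes (adjusted p = 0.15). Double-labelled minus red was -0.48 (SE 0.17, adjusted p = 0.82).

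At E14.5 Rora was 7.35, 7.39 and 7.19 in red cells, against 6.74, 6.14 and 5.86 in green cells. The groups did not overlap, and the green arrays spread over a wider range. The difference was 1.06 (SE 0.17, 95% interval 0.70 to 1.43, 2.09-fold), and it passed (limma, adjusted p = 0.0027). It also passed in every alternative run, with values between 0.87 and 1.31. Markers of other cells moved beside it: 2 of 10 GABAergic and prethalamic markers (Gad2 and Meis2) were higher in E14.5 red cells, against 1.89% of all genes. The mean over that list was 5.79 to 6.05 in red arrays, against 5.53 to 5.68 in green arrays. Of 9 progenitor markers, Top2a, Mki67 and Nes were lower and Slc1a3 higher in red cells, against 1.64% and 1.89% of all genes. The means of that list were 6.51 to 6.79 in red arrays, against 6.99 to 7.15 in green arrays. The part of these markers in the Rora difference was not tested.

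Rora did not pass between stages in either colour. The centred difference was -0.36 in red cells (adjusted p = 0.15), with the direction turned to 0.29 as deposited. In green cells it was 0.00 (95% interval -0.37 to 0.37), and 0.70 as deposited (adjusted p = 0.0024). Red minus green was 1.06 at E14.5 and 0.65 at E18.5, and the test of their difference gave -0.41 (SE 0.24, adjusted p = 0.74), with -0.66 and -0.22 without E14.5 green replicate 1 and 3.

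Rorb, the related receptor, was lowest in red cells at E18.5, where Rora was highest. Its signal was 7.73, 7.78 and 7.99 in E18.5 double-labelled cells. It was 7.06, 7.53 and 7.24 in red cells, against 8.03, 7.93 and 7.89 in green cells. The red arrays lay below every array of both other populations, and double-labelled and green arrays overlapped. Red minus green was -0.68 (SE 0.18, 95% interval -1.06 to -0.30, adjusted p = 0.15). At E14.5 it was 5.78, 6.03 and 6.58 in red cells and 6.30, 6.18 and 6.03 in green cells, with a difference of -0.04 (adjusted p = 0.99).

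Rorb rose with stage in both colours under each scaling. The centred signal in green cells was 1.45, 1.37 and 1.32 at E18.5, against 0.42, 0.31 and 0.16 at E14.5, groups far apart. The difference was 1.09 (SE 0.17, 95% interval 0.72 to 1.45, 2.12-fold, adjusted p = 2.1e-04). In red cells the centred signal was 0.52, 0.96 and 0.72 at E18.5, against -0.10, 0.17 and 0.65 at E14.5. These groups overlapped, and the difference of 0.50 (SE 0.17) passed with an adjusted p of 0.048, a call lost in 7 alternatives. Among them were E14.5 red replicate 1 or 2 and E18.5 red replicate 2 or 3 left out (adjusted p = 0.092 to 0.22, values 0.32 to 0.50). The change was not shown to differ between colours (-0.64, SE 0.25, adjusted p = 0.4; -0.41 without E14.5 red replicate 3).

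Nr2f1 varied little between colours. Its signal was 7.74, 7.84 and 8.03 in E18.5 double-labelled, 7.98, 8.11 and 7.98 in red, and 7.96, 7.98 and 8.12 in green cells. All 3 populations overlapped, and the difference between red and green cells was 0.01 (95% interval -0.23 to 0.24). At E14.5 it was 7.56, 7.80 and 7.53 in red cells and 7.70, 7.74 and 7.60 in green cells, with a difference of -0.05 (95% interval -0.29 to 0.18). Between stages the centred value was -0.36 in green cells (adjusted p = 0.025), against 0.34 as deposited (adjusted p = 0.013), and its direction is therefore not settled. The centred call was lost without green replicate 1 or 2 of either stage (adjusted p = 0.069 to 0.09).

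Nr2f2 was the most variable of the genes within E18.5 groups. Its signal was 7.13, 7.94 and 7.30 in double-labelled cells, 6.48, 7.49 and 6.78 in red cells, and 6.76, 7.07 and 6.89 in green cells. Replicate 2 was highest in each of the 3 populations. Double-labelled arrays lay above all green arrays, with a difference of 0.55 (SE 0.25, 95% interval 0.01 to 1.09) that did not pass (adjusted p = 0.84) and was 0.31 without double-labelled replicate 2. Double-labelled minus red was 0.54 (SE 0.25, unadjusted p = 0.049, adjusted p = 1), and 0.65, 0.45 and 0.52 within the same-numbered pairs. Leaving out red replicate 1 or 2 or double-labelled replicate 2, each of which breaks a same-numbered pair, moved it to 0.32, 0.83 and 0.30. A limma fit with the replicate number as a block kept the pairs and gave an SE of 0.14. Its 95% interval was 0.24 to 0.84, and it did not pass either (adjusted p = 0.26). Between red and green cells the difference was 0.00 (95% interval -0.54 to 0.54). At E14.5 it was 7.37, 7.002 and 6.73 in red cells and 6.75, 6.68 and 6.47 in green cells, with a difference of 0.40 (SE 0.25, adjusted p = 0.66), and 0.23 without red replicate 1. In red cells it was lower at E18.5 by the centred values (-0.77, SE 0.24, adjusted p = 0.03), and the value was -0.12 as deposited (adjusted p = 0.67). The centred call was lost without E14.5 red replicate 1 or 2 or E18.5 red replicate 1 or 3 (values -0.77 to -0.56, adjusted p = 0.075 to 0.14).

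Foxp1 encodes a forkhead repressor that pairs with its relatives. Its signal was 8.05, 8.04 and 8.35 in E18.5 double-labelled cells and 8.35, 8.34 and 8.35 in red cells, against 9.00, 8.84 and 8.72 in green cells. Green arrays lay above every array of both other populations. The same value, 8.35, was recorded in red replicates 1 and 3 and in double-labelled replicate 3. The difference between double-labelled and green cells was -0.70 (SE 0.14, 95% interval -1.01 to -0.40), with an unadjusted p of 2.3e-04 and an adjusted p of 0.17. That between red and green cells was -0.50 (SE 0.14, adjusted p = 0.2).

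At E14.5 Foxp1 was 7.79, 8.23 and 8.37 in red cells, against 8.49, 8.63 and 8.47 in green cells, again without overlap. The difference was -0.40 (SE 0.14, adjusted p = 0.21), and -0.23 without red replicate 1 (adjusted p = 0.73). At both stages all green arrays lay above all red arrays, in differences that did not pass. Between stages the centred value was -0.43 in red cells (adjusted p = 0.043), with the opposite sign as deposited (0.22, adjusted p = 0.18). The centred call was lost without E14.5 red replicate 2 or 3 or any 1 of the E18.5 red replicates (values -0.44 to -0.33, adjusted p = 0.065 to 0.17).

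Foxp2, which is known from posterior and intralaminar thalamic nuclei, had the same order of group means as Tcf7l2 at E18.5. Its signal was 9.44, 9.57 and 9.81 in E18.5 double-labelled cells and 8.83, 9.38 and 9.49 in red cells, against 9.70, 9.72 and 9.53 in green cells. Red arrays lay below the green ones, the lowest being replicate 1, 1 of the 2 arrays that stood apart. Red minus green was -0.42 (SE 0.16, adjusted p = 0.4), and -0.22 without red replicate 1. At E14.5 it was 8.85, 9.11 and 9.01 in red cells and 9.04, 9.00 and 8.84 in green cells, with a difference of 0.03 (95% interval -0.31 to 0.37). No stage difference passed with centred values, which gave -0.41 in red cells (0.24 as deposited, and -0.21 centred without E18.5 red replicate 1) and -0.01 in green cells. As deposited, the value in green cells was 0.69 (adjusted p = 0.0017).

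Of the 10 genes, Prox1 had the largest change in its red-green difference between stages. At E18.5 its signal was 8.93, 9.33 and 9.77 in double-labelled cells and 9.01, 9.45 and 9.78 in red cells, against 10.43, 10.55 and 10.30 in green cells. Green arrays lay above all 6 others, and double-labelled and red cells overlapped, with a difference of -0.07 (95% interval -0.61 to 0.47). Within the same-numbered pairs, double-labelled minus red was -0.09, -0.12 and -0.01, and a fit with the replicate number as a block gave an interval of -0.57 to 0.42. The difference between red and green cells was -1.02 (SE 0.25, 95% interval -1.56 to -0.48, 2.02-fold), with an adjusted p of 0.12. That between double-labelled and green cells was -1.09 (SE 0.25, 95% interval -1.63 to -0.55, 2.12-fold, adjusted p = 0.26).

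At E14.5 the order was the other way. Prox1 was 8.42, 8.84 and 9.07 in red cells, against 8.32, 7.56 and 7.86 in green cells, with no overlap. The difference was 0.86 (SE 0.25, 95% interval 0.32 to 1.40, 1.82-fold, adjusted p = 0.093). Neither colour difference passed alone, and the test of their difference did: -1.88 (SE 0.36, 95% interval -2.64 to -1.11), limma adjusted p = 0.02. That call was lost when E18.5 green replicate 1 or 2, E14.5 red replicate 2 or 3, or E14.5 green replicate 2 or 3 was left out. Without each array in turn the value ran from -2.08 to -1.68 and the adjusted p from 0.01 to 0.069.

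In green cells Prox1 rose with stage. Its centred signal was 3.85, 3.99 and 3.74 at E18.5, against 2.45, 1.69 and 1.98 at E14.5. The groups were far apart, and the difference was 1.82 (SE 0.24, 95% interval 1.30 to 2.34, 3.53-fold, adjusted p = 5.8e-05), with 1.65 to 2.52 over all alternatives. In red cells the centred signal was 2.48, 2.88 and 3.26 at E18.5, against 2.53, 2.98 and 3.14 at E14.5. These overlapped, with a difference of -0.01 (95% interval -0.53 to 0.51) that was 0.64 as deposited (adjusted p = 0.034). Progenitor markers also moved in green cells: 6 of 9 were lower at E18.5, against 20.1% of all genes. Among them were the proliferation genes Mki67 (-1.98) and Top2a (-1.93). Their part in the Prox1 difference was not tested.

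**Figure D2:**
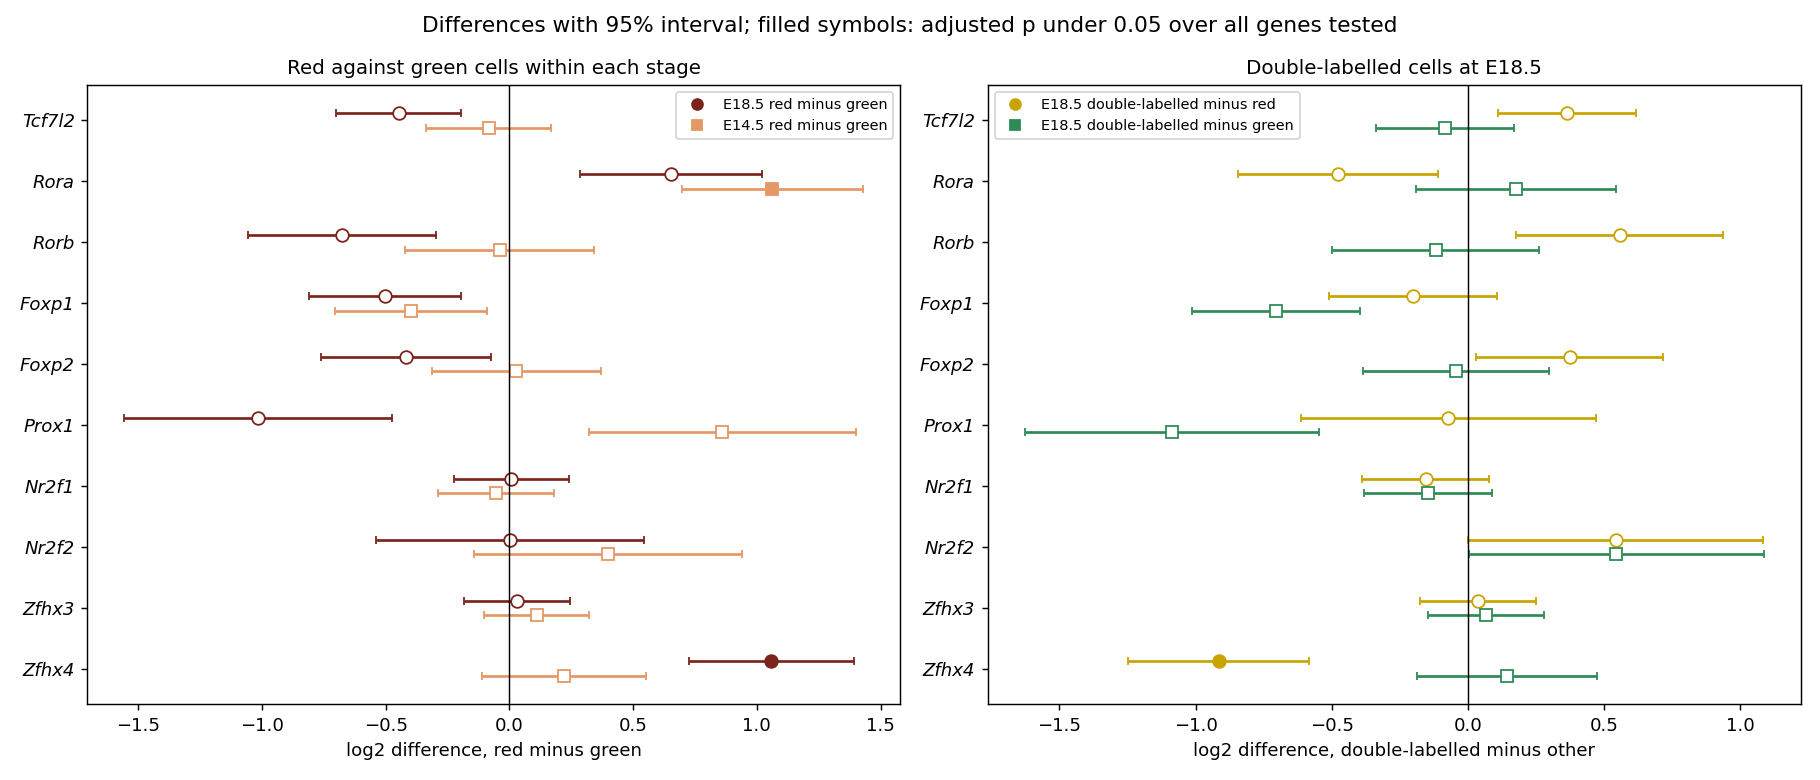
Log2 differences between colours (horizontal axis) for each of the 10 genes (vertical axis), as points with 95% intervals from the limma model; filled points passed at adjusted p 0.05. Zfhx4 passed in red against green (1.06) and in double-labelled against red cells at E18.5, Rora passed in red against green cells at E14.5 (1.06), and the intervals of Prox1 lie on opposite sides of 0 at E18.5 and E14.5.

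Zfhx3 did not differ between colours at either stage beyond its spread. It was 9.26, 9.32 and 9.38 in E18.5 double-labelled cells, 9.38, 9.26 and 9.20 in red cells, and 9.26, 9.25 and 9.26 in green cells. The 3 populations overlapped, and the difference between red and green cells was 0.03 (95% interval -0.18 to 0.24). At E14.5 it was 9.70, 9.88 and 9.67 in red cells and 9.71, 9.72 and 9.499 in green cells, with a difference of 0.11 (95% interval -0.10 to 0.32).

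Between stages Zfhx3 fell in both colours and under each scaling. The centred signal in red cells was 2.85, 2.70 and 2.68 at E18.5, against 3.82, 4.02 and 3.75 at E14.5. The difference was -1.12 (SE 0.11, 95% interval -1.35 to -0.89, 2.17-fold, adjusted p = 8.4e-06). In green cells the centred signal was 2.67, 2.68 and 2.69 at E18.5, against 3.83, 3.85 and 3.62 at E14.5, with a difference of -1.09 (SE 0.11, 2.12-fold, adjusted p = 3.7e-06). As deposited these differences were smaller, -0.47 in red cells (adjusted p = 9.3e-04) and -0.39 in green cells (adjusted p = 0.0032). The fall was not shown to differ between colours (-0.08, SE 0.14, adjusted p = 0.98).

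Zfhx4 was highest in red cells at E18.5. Its signal was 7.59, 8.27 and 8.27 in double-labelled cells and 8.90, 9.02 and 8.96 in red cells, against 7.89, 7.86 and 7.96 in green cells. Red arrays lay above every array of both other populations, and double-labelled and green arrays overlapped. Red cells were higher than green cells by 1.06 (SE 0.15, 95% interval 0.73 to 1.39, 2.08-fold, limma adjusted p = 0.0053). This call held without each array in turn and was lost only when the E18.5 arrays were fitted alone (adjusted p = 0.11). Double-labelled cells were below red cells (-0.91, SE 0.15, 95% interval -1.25 to -0.58, 1.89-fold, adjusted p = 0.046). That second call was lost in 9 alternatives, among them leaving out red replicate 1, 2 or 3 (adjusted p = 0.07, 0.096 and 0.13) or double-labelled replicate 2 (adjusted p = 0.052). Leaving out any of these arrays breaks a same-numbered pair. Within the pairs, double-labelled minus red was -1.31, -0.75 and -0.69. The limma fit with the replicate number as a block kept the pairs and passed (adjusted p = 0.023). Double-labelled and green cells differed by 0.14 (95% interval -0.19 to 0.48).

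Between the E18.5 colours, some markers of midbrain dopamine neurons differed in the same direction as Zfhx4. Of 12 such markers, 6 were higher in E18.5 red than in green cells (Th, Slc6a3, Ddc, Slc18a2, Aldh1a1 and Foxa1), against 0.265% of all genes. In double-labelled against red cells 4 were lower, against 0.0661% of all genes. The list's mean signal was 6.26 to 6.42 in double-labelled arrays, 6.91 to 7.35 in red arrays and 6.00 to 6.13 in green arrays. Th, the rate-limiting enzyme of dopamine synthesis, was higher in red than in green cells by 2.01 (adjusted p = 4.7e-07). Of 7 habenula markers tested, Nr4a2 and Chrnb3 were higher in red cells when set against green cells, against the same 0.265% of all genes. Of the 5 that did not pass, Chrna3 averaged 7.63 in red and 8.10 in green cells, and Tac1 averaged 5.85 in red and 6.31 in green cells. The mean of the 7 was 6.02 to 6.17, 6.40 to 6.58 and 6.02 to 6.23 in double-labelled, red and green arrays. Between stages, 5 of the 12 dopamine markers were higher at E18.5 in red cells, against 9.90% of all genes. Centred Zfhx4 did not pass there (-0.18, limma adjusted p = 0.41). In green cells, where Zfhx4 fell, 2 of the 12 were lower, against 20.1% of all genes. The part of either list in the Zfhx4 difference was not tested.

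At E14.5 Zfhx4 was 8.49, 8.63 and 8.35 in red cells, against 8.31, 8.32 and 8.18 in green cells, and the difference of 0.22 did not pass (adjusted p = 0.73). The difference between red and green cells was larger at E18.5 by 0.84 (SE 0.22, 95% interval 0.37 to 1.31), with an adjusted p of 0.098. In green cells Zfhx4 fell with stage: the centred signal was 1.30, 1.30 and 1.39 at E18.5, against 2.43, 2.45 and 2.30 at E14.5. The difference was -1.06 (SE 0.15, 2.09-fold, adjusted p = 6.8e-05), and -0.37 as deposited (adjusted p = 0.045). In red cells it was -0.18 (adjusted p = 0.41), with the direction turned to 0.47 as deposited (adjusted p = 0.014).

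**Figure D3:**
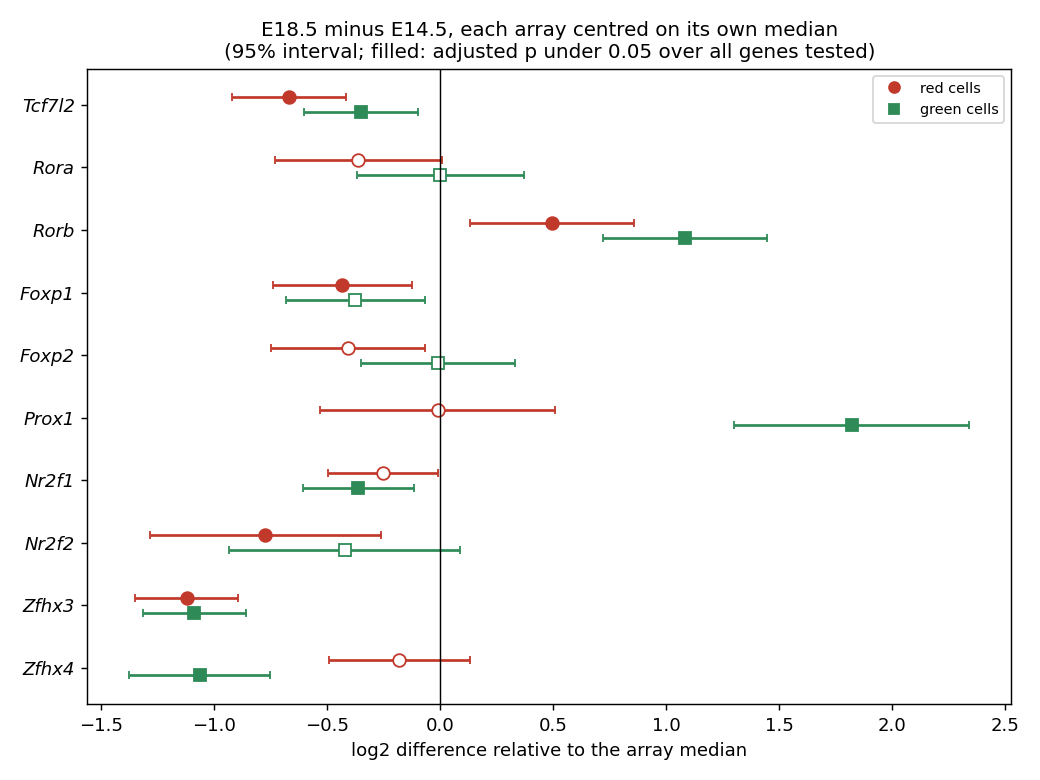
Log2 difference of E18.5 and E14.5 (horizontal axis) in red and in green cells for each of the 10 genes (vertical axis), with each array centred on its median; bars are 95% intervals and filled symbols passed. Prox1 in green cells and Rorb in both colours were higher at E18.5 and Zfhx3 in both colours and Zfhx4 in green cells lower, also with the values as deposited, whereas the direction of Tcf7l2, Foxp1, Foxp2, Nr2f1 and Nr2f2 in green cells, and of Rora, Foxp1, Foxp2, Prox1, Nr2f1 and Zfhx4 in red cells, flips as deposited.

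Of 8 paralogues of these genes tested, 1 passed between red and green cells at E18.5, against 0.613% of all genes. This was Lef1, which like Tcf7l2 encodes an HMG-box effector of Wnt signals. Lef1 was higher in red cells by 0.82 (adjusted p = 0.013), while Tcf7l2 had the opposite order in a difference that did not pass. No other paralogue passed between colours at either stage. Foxp4 rose with stage, by 1.41 in red cells (adjusted p = 7.9e-05) and by 1.62 in green cells (adjusted p = 1e-05), with the same direction as deposited and after quantile normalization. Lef1 fell in green cells by the centred values (-0.86, adjusted p = 3.2e-04), and the value was -0.16 as deposited.

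Of 15 other thalamic transcription factors, 1 was higher and 3 were lower in red than in green cells at E18.5, against 0.265% and 0.349% of all genes. Pou2f2 was higher (0.90, adjusted p = 0.013). The LIM-homeobox gene Lhx9 (-0.99, adjusted p = 0.0037) and Nfib (-1.16, adjusted p = 0.018) were lower, as was Gbx2, whose locus drives the EGFP used for sorting. At E14.5, 1 was higher and 4 were lower in red cells, against 1.89% and 1.64% of all genes. Olig3, a bHLH gene of thalamic progenitors, was lower by the widest margin (-3.19, adjusted p = 8.9e-07). Lhx9 and Nfib were lower in red cells at both stages. Between stages 7 passed in red and 9 in green cells, all lower at E18.5, against 13.3% and 20.1% of all genes lower. However, 1 of the 7 and 5 of the 9 changed direction under another scaling.

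Around Tcf7l2, 20 genes of the Wnt and β-catenin pathway were tested. At E18.5 only Tle3, a Groucho co-repressor that binds TCF proteins, passed between red and green cells (-1.08, adjusted p = 0.0062), against 0.613% of all genes. At E14.5 Tle3, Tle4 and Axin2 were lower and Tle1 was higher in red cells, against 1.64% and 1.89% of all genes. Axin2, a common target of the pathway and part of the complex that destroys β-catenin, differed by -0.75 there (adjusted p = 0.014). With stage, 2 were higher and 7 lower in each colour. The shares of all genes were 9.90% and 13.3% in red cells, and 13.0% and 20.1% in green cells. In each colour, 3 of the 9 turned under another scaling. Axin2 fell in green cells (-1.36, adjusted p = 2.6e-05) under each scaling, and Nkd1, another feedback inhibitor, fell in red cells (-1.34, adjusted p = 4.2e-05). As deposited these values were smaller, -0.66 for Axin2 and -0.69 for Nkd1.

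Of 13 cofactors of nuclear receptors and Foxp proteins, 0 passed at E18.5 between red and green cells in limma, and 3 had an unadjusted p under 0.05, against 10.0% of all genes. At E14.5, 2 of the 13 were lower and 1 was higher in red cells, against 1.64% and 1.89% of all genes. Nrip1, a co-repressor of nuclear receptors, was lower (-1.46, adjusted p = 1.5e-04), as was Ctbp2 (-0.58). The coactivator Ppargc1a was higher (0.73, adjusted p = 0.021). Between stages in green cells, 1 of the 13 was higher and 6 were lower at E18.5, against 13.0% and 20.1% of all genes. Of these 7, 3 turned under another scaling. Ppargc1a rose by 1.72, while Nrip1 (-1.60) and Zfpm2 (-1.75), which encodes a partner of COUP-TF proteins, fell. These kept their direction under each scaling. Of 6 clock genes known as Ror targets, 1 was higher in red than in green cells at E14.5, against 1.89% of all genes. This was Arntl (0.86, adjusted p = 0.0058), in the comparison in which Rora passed. Any link between Arntl and Rora was not tested. At E18.5, 0 of the 6 passed between red and green cells in limma, and 3 had an unadjusted p under 0.05, against the same 10.0% of all genes.

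Of 11 genes of relay neurons and excitability, Cck (1.84) was higher and Calb2 (-2.41) and Necab1 (-1.12) were lower in red than in green cells at E18.5. The shares of all genes there were 0.265% higher and 0.349% lower. Calb2, which encodes calretinin, was also higher in double-labelled than in red cells (1.51, adjusted p = 0.0047). Necab1 had the opposite order at E14.5 (1.12, adjusted p = 0.0012). The red-green difference differed between stages for 3 of the 11, against 1.05% of all genes. These were Calb2 (-3.09, adjusted p = 9.9e-05), Necab1 (-2.24, adjusted p = 2.6e-04) and Kcnd2 (-1.34, adjusted p = 0.034). Prox1 passed the same test. With stage, 5 rose and 1 fell in each colour, with the same directions under each scaling. Of all genes, 9.90% rose and 13.3% fell in red cells, and 13.0% rose and 20.1% fell in green cells, by the centred values.

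Over the 15 arrays, with the mean of each stage removed, Tcf7l2 and Foxp2 were the members whose values moved most together (r = 0.894), and r was 0.688 over 13 arrays without the 2 that stood apart. Rorb correlated with Foxp2 (0.767; 0.65 over 13 arrays) and with Tcf7l2 (0.723; 0.541 over 13 arrays). Zfhx4 ran against Rorb (-0.684; -0.708 over 13 arrays) and Tcf7l2 (-0.627; -0.8 over 13 arrays), and with Rora (0.62; 0.615 over 13 arrays). Foxp1 ran against Nr2f2 (-0.606; -0.805 over 13 arrays). These coefficients describe arrays that share groups and carry no test.

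**Figure D4:**
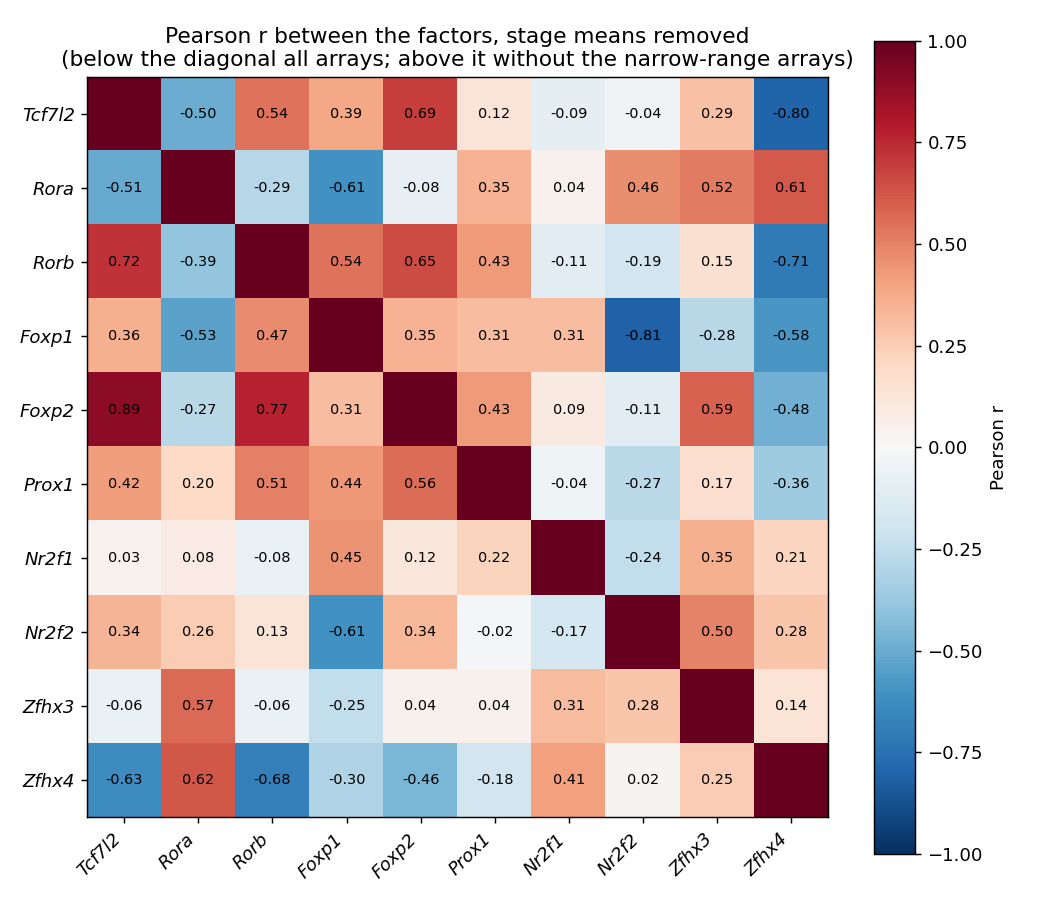
Pearson correlation (colour, -1 to 1) between each pair of the 10 genes after the mean of each stage was removed, over all 15 arrays under the diagonal and over 13 arrays above it, without the 2 E18.5 arrays of narrow range. Tcf7l2, Rorb and Foxp2 correlate positively with each other, and Zfhx4 correlates negatively with Tcf7l2 and Rorb on both sides of the diagonal.

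The genes whose values were most like each member's were taken over all genes tested, by the same correlation over 15 arrays. Tcf7l2 was most like Vti1a (r = 0.927), its neighbour on chromosome 19, which ends 114 kb from it in GRCm38.p6. Rora was most like the kainate receptor gene Grik3 (0.957), Galntl6 (0.953) and Igsf21 (0.932), and these were 0.945 to 0.964 over 13 arrays. Zfhx4 was most like Ddc (0.924), Inpp4b (0.913) and Th (0.908), 2 of which are on the dopamine list.

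Nr2f2 was most like Tshz1 (0.913), Tgfa (0.911) and Ppp3ca (0.907). Prox1 was most like Prkg1 (0.902), Arhgap20 (0.894) and Rev3l (0.892). Rorb was most like Tox (0.868), Tigd3 (0.842) and Paip2b (0.827). Foxp1 was most like Ivns1abp (0.912), Foxp2 like Scyl3 (0.931), Zfhx3 like Atxn7l3 (0.864) and Nr2f1 like Dchs2 (0.824). The coefficient of Foxp2 with its second gene, Gabrg1, was 0.897 over 15 arrays and 0.615 over 13.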

How the data were processed

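Total RNA of 15 samples was amplified from 10 ng and hybridised to Affymetrix arrays, per the labels' protocols. The deposited values are log2 signals per transcript cluster made in Affymetrix Expression Console, per the submitters' processing notes; version and algorithm are not given in the sources used here. They were used as deposited within a stage, and minus each array's median over the genes tested between stages. Of 33794 features, 23521 named 1 gene, 1814 several and 8459 none. For the 1082 genes with several features, the one with the highest mean was used. A filter removed the dimmest 25% of genes (mean under 5.07) and kept 16635.

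limma 3.58.1 in R 4.3.3 fitted 1 group-means model to all 15 arrays (10 residual degrees of freedom), with two-sided moderated tests and Benjamini-Hochberg adjustment over the 16635 genes. "Passed" means an adjusted p under 0.05. SDs are between arrays and SEs and 95% intervals come from the model. The fit was tested on simulated data. Plots used matplotlib 3.10.9 in Python 3.11.15. Gene symbols are those paired with the probes; 23328 of 23521 matched RefSeq by Entrez identifier, and 0 changed.

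Named genes are the 10 members, the 3 genes most correlated with each, up to 4 passed genes per list and comparison, and Gbx2. Members and lists were chosen with earlier results of these data known. Markers left out by the filter (Tac2, Tal2, Helt, Emx2, Fezf2, Pdgfra and Cldn5) were not tested. Same-numbered double-labelled and red arrays at E18.5 deviated together (r = 0.669, 0.496 and 0.487), which pairs them by a rule of r above 0.1; the labels state no shared batch. Array scan dates are not given in the sources used here. Alternatives were quantile normalization, the other scaling, no filter, other features per gene, other sets of arrays, an intensity trend, a spread per stage, the replicate block, and arrays left out.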

Additional observations from a re-analysis of the deposited data

Results flagged for a closer look

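The difference between red and green cells differed between stages for Prox1, by the interaction term of the limma model: -1.88 on the log2 scale (SE 0.36, adjusted p = 0.02). Red minus green was -1.02 at E18.5 and 0.86 at E14.5, neither of which passed alone, with no overlap of the 3 red and 3 green arrays at either stage. The adjusted p ran from 0.0075 to 0.069 over the alternatives, and the difference kept its sign in all of them. Since E14.5 had no double-labelled group, the red and green sorts may not be alike at the stages compared.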

How the results depend on the processing

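Of 16 member results that passed, 6 passed with the same sign in every alternative: Prox1, Rorb, Zfhx3 and Zfhx4 between stages in green cells, Zfhx3 between stages in red cells, and Rora between colours at E14.5. Each count below is of the 10 genes. Between red and green cells at E14.5 the count of 1 became 2 after quantile normalization, with only the groups compared and without the 2 narrow-range arrays, and 3 with a spread per stage; Prox1 was added in each, and Foxp1 with a spread per stage. The red-green difference between stages went to 2 after quantile normalization, with only the groups compared and without the narrow-range arrays, Zfhx4 being added. In double-labelled against red cells the count was 0 with no filter, only the groups compared, only the arrays of the stage, a spread per stage and an intensity trend. The F test gave 0 with only the groups compared and with a spread per stage. In red against green cells at E18.5 it was 0 with only the arrays of the stage. Green cells between stages gave 4 to 8 over the alternatives (6 as reported). As deposited 6 were higher and 2 lower, against 71% and 2.45% of all genes. Red cells between stages gave 2 with only the groups compared and 3 with a spread per stage or an intensity trend. In red cells as deposited 4 were higher and 1 lower, against 71.3% and 1.06% of all genes. The cause of these changes was not tested.

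With the replicate number as a block (replicate block), 2 genes passed in red against green cells at E18.5, Rora being added (adjusted p = 0.049), and 234 of all genes passed against 102. Same-numbered red and green arrays at E18.5 correlated by 0.465, 0.406 and 0.0583, and at E14.5 by 0.0687, 0.217 and 0.265, so the numbers were not taken to pair them. The block changed no other member's call, the paired double-labelled and red arrays included (Zfhx4, adjusted p = 0.023).

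Leaving out 1 array at a time, the count ran from 0 to 1 in double-labelled against red cells and in the F test, from 1 to 2 between colours at E14.5, from 2 to 4 in red cells between stages, and from 0 to 1 for the red-green difference between stages. The counts over all genes that follow cover every alternative, not only those with an array left out. The counts ran from 6 to 234 for red against green cells at E18.5 (102 as reported), the highest with the replicate block. They ran from 0 to 35 for double-labelled against green (6), from 0 to 39 for double-labelled against red (15), and from 6 to 206 for the F test (71). They ran from 247 to 1703 for colours at E14.5 (586), from 2723 to 12041 for red (3861) and from 4020 to 12226 for green cells between stages (5501), and from 76 to 486 for the red-green difference (175).

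Signs turned 48 times, 45 of them for differences that had not passed. As deposited, differences between stages turned to 0.22 (Foxp1), 0.24 (Foxp2), 0.40 (Nr2f1), 0.64 (Prox1), 0.29 (Rora) and 0.47 (Zfhx4) in red cells, and to 0.32 (Foxp1), 0.69 (Foxp2), 0.34 (Nr2f1), 0.27 (Nr2f2) and 0.35 (Tcf7l2) in green cells. Quantile normalization gave 0.097 (Foxp2) and 1.8e-04 (Rorb) for double-labelled against green, -0.029 for Zfhx3 in double-labelled against red, 0.014 for Nr2f1 at E14.5 and for the red-green difference of Zfhx3, 0.13 for Prox1 between stages in red and 0.074 for Foxp2 in green cells. Without the narrow-range arrays the values were 0.041 (Foxp2, double-labelled against green), 0.18 (Prox1, red cells between stages) and -0.020 (Zfhx3, red against green at E18.5). With the lowest-mean feature per gene, Foxp2 between stages in green cells was 0.0042.

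Without 1 array at a time, values ran from -0.033 to 0.059 (Nr2f1), -0.28 to 0.22 (Nr2f2) and -0.020 to 0.070 (Zfhx3) for red against green at E18.5. They ran from -0.15 to 0.04 for Foxp2 in double-labelled against green, and from -0.28 to 0.14 (Prox1) and -0.0028 to 0.087 (Zfhx3) in double-labelled against red cells. At E14.5 they ran from -0.034 to 0.10 (Foxp2) and -0.27 to 0.13 (Rorb). Between stages they ran from -0.20 to 0.18 for Prox1 in red cells, from -0.072 to 0.048 for Foxp2 and -0.19 to 0.25 for Rora in green cells, and from -0.27 to 0.018 for the red-green difference of Foxp1.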
